A study of Mus musculus with 6 samples.

Results

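The circadian clock genes examined here were Per1, Per2, Per3, Cry1, Cry2, Arntl, Clock, Nr1d1, Nr1d2 and Dbp, chosen by gene symbol as known parts of the clock, and all 10 were found among the 46603 genes of the deposited tables. RNA was sequenced from primary enamel organ cells of the lower incisors of C57BL/6 mice, 3 libraries from Stim1/2 knockout mice (DKO, numbered 1, 3 and 4) and 3 from wild-type mice (WT, numbered 1, 2 and 3). The enamel organ is the epithelium that holds the ameloblasts, which secrete and then mature the enamel. STIM1 and STIM2 sense the calcium of the endoplasmic reticulum and open ORAI channels of the plasma membrane when that store empties, which is store-operated calcium entry. The title of the series asks what this entry does in ameloblasts. Age, sex, the way the genes were deleted and the time of day of dissection are not given in the labels, and neither is whether each library came from a separate animal, so the spread behind each p-value is that between libraries and may be technical.

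The clock is a loop of transcription and repression that runs once a day in most cells. CLOCK and BMAL1, the product of Arntl, pair up and switch on the Per, Cry, Nr1d1, Nr1d2 and Dbp genes through E-box sequences. PER and CRY proteins then accumulate and inhibit that pair, while REV-ERB alpha and REV-ERB beta, the products of Nr1d1 and Nr1d2, repress Arntl through ROR elements. DBP carries the rhythm to further genes through D-box sequences. Enamel grows in daily increments, and clock genes are known to cycle in ameloblasts, so a level measured in such cells depends on when they were taken.

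The promoters of 4 members are printed below because they hold elements through which the loop acts. They run from 250 bases before to 50 bases after a transcription start, 5′ to 3′, from RefSeq on GRCm38.p6, and capitals mark an E-box (CACGTG) in Per1, 2 D-boxes in Per3, an E-box variant in Nr1d1 and a ROR element core in Arntl.
Per1, chr11:69098699-69098998, plus strand: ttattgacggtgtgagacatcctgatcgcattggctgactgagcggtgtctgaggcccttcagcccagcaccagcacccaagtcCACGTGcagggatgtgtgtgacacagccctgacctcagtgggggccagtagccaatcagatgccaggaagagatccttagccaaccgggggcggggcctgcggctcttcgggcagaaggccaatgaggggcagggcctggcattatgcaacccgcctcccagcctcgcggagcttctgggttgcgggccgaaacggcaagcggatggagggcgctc
Per3, chr4:151044616-151044915, minus strand: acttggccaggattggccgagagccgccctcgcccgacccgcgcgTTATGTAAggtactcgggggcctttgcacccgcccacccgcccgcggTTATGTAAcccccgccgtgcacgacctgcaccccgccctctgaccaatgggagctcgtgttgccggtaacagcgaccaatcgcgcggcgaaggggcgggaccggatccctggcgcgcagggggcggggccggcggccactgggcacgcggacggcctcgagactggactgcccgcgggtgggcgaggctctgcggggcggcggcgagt
Nr1d1, chr11:98775328-98775627, minus strand: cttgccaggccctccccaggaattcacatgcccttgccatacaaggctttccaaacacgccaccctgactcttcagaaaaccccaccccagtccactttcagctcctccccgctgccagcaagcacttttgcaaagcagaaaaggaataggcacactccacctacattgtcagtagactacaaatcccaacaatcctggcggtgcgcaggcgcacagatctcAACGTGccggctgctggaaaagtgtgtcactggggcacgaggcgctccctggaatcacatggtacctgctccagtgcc
Arntl, chr7:113207261-113207560, plus strand: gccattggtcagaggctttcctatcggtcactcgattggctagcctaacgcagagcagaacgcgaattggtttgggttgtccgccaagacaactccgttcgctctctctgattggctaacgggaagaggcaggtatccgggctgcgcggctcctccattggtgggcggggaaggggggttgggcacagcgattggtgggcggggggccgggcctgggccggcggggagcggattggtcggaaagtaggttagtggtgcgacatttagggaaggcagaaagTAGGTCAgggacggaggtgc
RefSeq windows were at hand for 9 of the 10 genes, 13 windows in all, since Per1, Arntl and Clock have several starts. An E-box lay in 2 of the 9 genes, Per1 and Cry1 (2 of their 13 windows), and in 7.15% of 32851 promoter windows of all genes. The variants CACGTT and AACGTG lay in 3 genes, Cry1, Cry2 and Nr1d1 (3 of the 13 windows), and in 4.68% of all windows. A D-box, searched as TTATGTAA, TTACATAA or TTACGTAA, lay in Per3 (1 of the 13 windows) and in 1.06% of all windows. The ROR core, searched as TAGGTCA or TGGGTCA on both strands, lay in the Arntl window shown and in 6.45% of all windows, and the cAMP response element TGACGTCA in none of the 9 genes and in 1.79% of windows. The E-box and the cAMP element read the same on both strands. A match is a description of the letters only.

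Libraries held from 18609759 to 22829411 counts, and levels are given as counts per 1e6 scaled by TMM (CPM). The targeted genes were lower in DKO, as the labels say. Stim1 stood at 107, 143 and 125 CPM in DKO 1, 3 and 4, against 413, 492 and 362 CPM in WT 1, 2 and 3, which is -1.75 on the log2 scale with an SE of 0.15 (adjusted p = 0.00553 by edgeR). Stim2 stood at 105, 136 and 125 CPM in the DKO libraries, against 229, 310 and 245 CPM in the WT libraries, which is -1.10 with an SE of 0.14 (adjusted p = 0.018 by edgeR, and from 0.0574 to 0.0987 without DKO 1, DKO 3, DKO 4 or WT 3, where the call ended). The enamel matrix genes Ambn and Amelx, which mark ameloblasts, stood at 28849 CPM or more in every library.

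Per transcript length, the members fell into 3 tiers, on the scale of the deposited FPKM values (fragments per kilobase and per 1e6 fragments). Nr1d2, Nr1d1, Per1, Clock and Arntl had the highest levels, with means over the 6 libraries of 16.6, 14.6, 14.1, 12.5 and 9.66 FPKM. Cry1, Dbp, Per3 and Cry2 followed at 3.40, 3.36, 3.21 and 3.13 FPKM, and Per2 came last at 0.922 FPKM. The lowest library of Arntl, at 7.92 FPKM, lay above the highest of Cry1, at 4.38 FPKM. The lowest library of Cry2, at 2.66 FPKM, lay above the highest of Per2, at 1.27 FPKM. All other neighbours in this order overlapped, so their order within a tier is not larger than the spread between libraries.

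**Figure D1:**
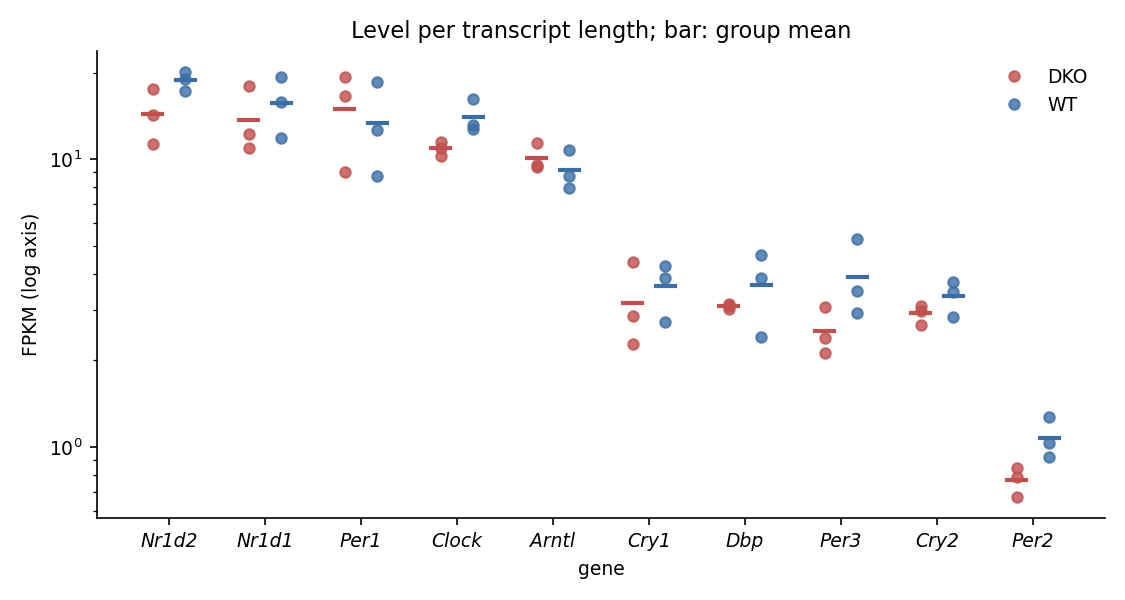
Deposited FPKM of each clock gene on a log axis, ordered by the mean over 6 libraries; points are libraries (DKO left, WT right) and bars are group means. Per2 sits lowest, at 1.27 FPKM or less in every library, and the 5 genes from Nr1d2 to Arntl sit at 7.92 FPKM or more.

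The activating arm of the loop is made by Clock and Arntl. Clock (ENSMUSG00000029238, GRCm38 chromosome 5, 76209868 to 76304792, minus strand) stood at 93.3, 88.3 and 90.9 CPM in DKO 1, 3 and 4, against 136, 104 and 108 CPM in WT 1, 2 and 3. All DKO libraries lay below all WT libraries, and the group means were 90.8 ± 2.54 CPM in DKO and 116 ± 17 CPM in WT (SD, n = 3 each). The log2 fold change was -0.35 (95% interval -0.60 to -0.11), and it did not pass the test over all genes (edgeR adjusted p = 0.152). Without WT 1 it was -0.22. In these bulk samples, fewer cells of a type and less RNA per cell cannot be told apart.

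Arntl (ENSMUSG00000055116, chromosome 7, 113207465 to 113314126, plus strand) stood at 27.9, 35.7 and 28.1 CPM in DKO 1, 3 and 4, against 32.4, 27.1 and 24.1 CPM in WT 1, 2 and 3. The groups overlapped, with a log2 fold change of 0.13 (95% interval -0.20 to 0.46, edgeR adjusted p = 0.670). That interval leaves room for differences of either sign. Arntl was 0.01 without DKO 3, 0.04 without WT 3 and 0.26 without WT 1.

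The repressing arm is made by the Per and Cry genes. Per1 (ENSMUSG00000020893, chromosome 11, 69095217 to 69109960, plus strand), which signals from outside the cell also induce, stood at 82.9, 82.8 and 43.5 CPM in DKO 1, 3 and 4, against 90.1, 62.8 and 43.0 CPM in WT 1, 2 and 3. The highest library of a group stood over the lowest by a ratio of 1.91 in DKO and 2.10 in WT. The log2 fold change was 0.09 (95% interval -0.63 to 0.82, edgeR adjusted p = 0.906), and its sign turned without DKO 1, DKO 3 or WT 3, at -0.04, -0.05 and -0.13.

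Per2 (ENSMUSG00000055866, chromosome 1, 91415982 to 91459324, minus strand), a PER protein gene that the loop needs, stood at 5.22, 4.33 and 4.87 CPM in DKO 1, 3 and 4, against 5.77, 8.34 and 6.63 CPM in WT 1, 2 and 3. The groups did not overlap, and the log2 fold change was -0.52 (95% interval -0.95 to -0.10, edgeR adjusted p = 0.198). Counts were low, from 85 to 172 per library.

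Per3 (ENSMUSG00000028957, chromosome 4, 151003652 to 151044665, minus strand), the PER paralog whose promoter holds the 2 D-boxes shown above, stood at 15.3, 13.1 and 15.9 CPM in DKO 1, 3 and 4, against 17.6, 22.0 and 33.2 CPM in WT 1, 2 and 3. The groups did not overlap, though WT 1 and DKO 4 came close. Its log2 fold change of -0.72 (SE 0.22, 95% interval -1.23 to -0.20) was the largest in size among the 10 members and did not pass by edgeR (adjusted p = 0.166). DESeq2 called it lower in DKO (adjusted p = 0.0446), the one member called by any alternative, and over 18 alternatives the adjusted p ran from 0.0446 to 0.527. Without WT 3 the log2 fold change was -0.42, and without WT 1 it was -0.90.

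Cry1 and Cry2 encode the cryptochromes, which inhibit CLOCK and BMAL1 directly. Cry1 (ENSMUSG00000020038, chromosome 10, 85131700 to 85185064, minus strand) stood at 13.5, 7.44 and 8.99 CPM in DKO 1, 3 and 4, against 13.2, 12.3 and 8.54 CPM in WT 1, 2 and 3. Cry2 (ENSMUSG00000068742, chromosome 2, 92403646 to 92434043, minus strand) stood at 12.0, 10.7 and 11.2 CPM in DKO 1, 3 and 4, against 10.7, 14.4 and 13.5 CPM in WT 1, 2 and 3. Both genes overlapped between the groups, with log2 fold changes of -0.18 (95% interval -0.77 to 0.40) and -0.19 (95% interval -0.51 to 0.14) and edgeR adjusted p of 0.755 and 0.526. With 1 library left out Cry1 lay between -0.46 (without DKO 1) and -0.01 (without DKO 3), also past 1.5 times without DKO 4 (-0.11), WT 1 (-0.06), WT 2 (-0.12) or WT 3 (-0.34), and Cry2 was -0.10 without WT 2 and -0.30 without WT 1. The exons of Cry2 share 4.67% of their length with D930015M05Rik, and reads there cannot be assigned either way.

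**Figure D2:**
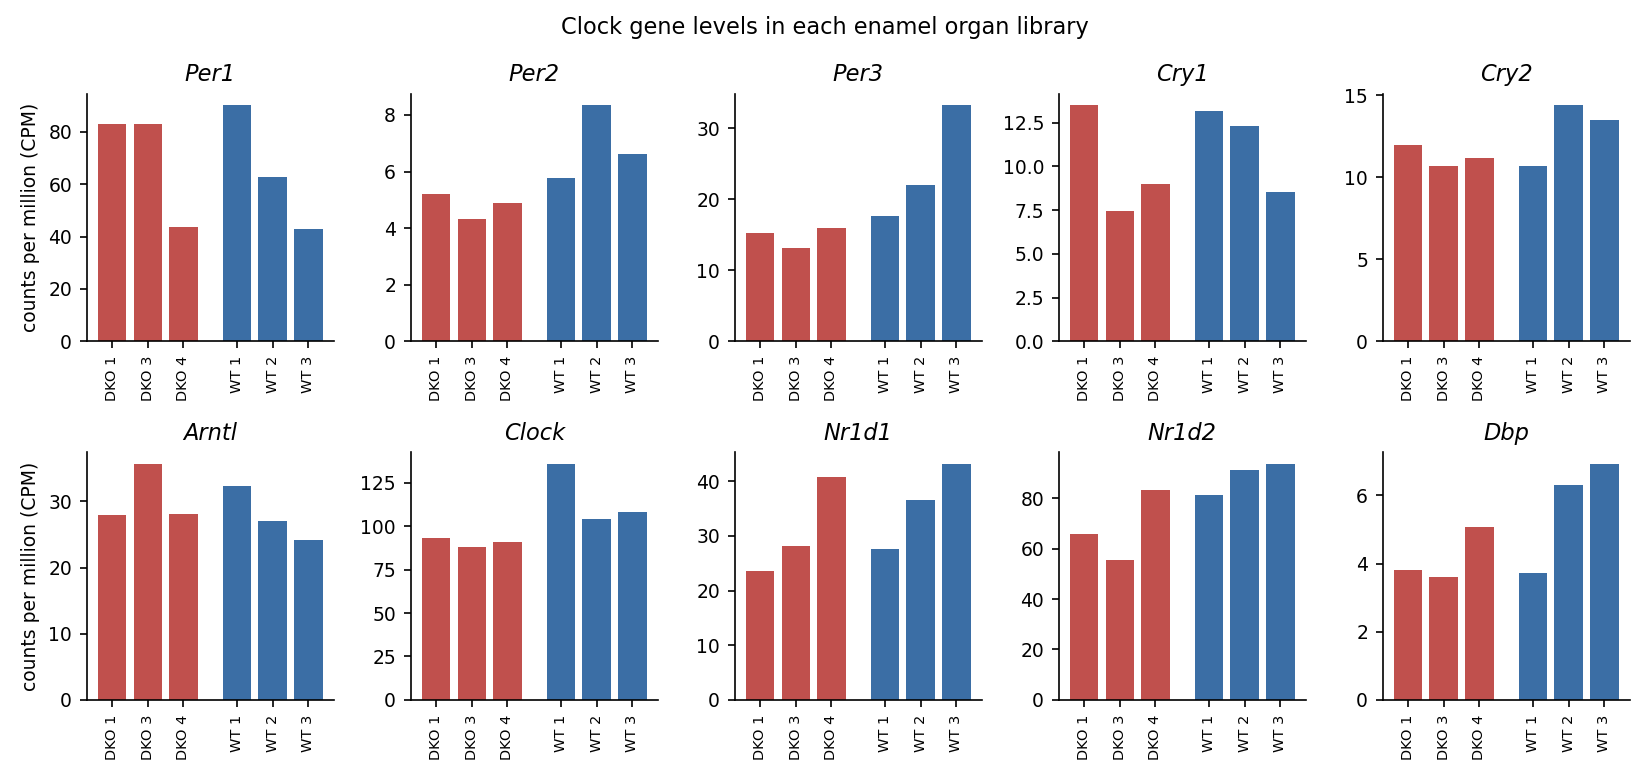
CPM of the 10 clock genes in each library, DKO in red and WT in blue, with axes from 0 that differ between panels. Per1 spans 43.0 to 90.1 CPM and Nr1d1 spans 23.5 to 43.2 CPM, each with libraries of both groups at either end, while Clock, Per2 and Per3 have all DKO bars below all WT bars.

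The REV-ERB genes form the second, stabilising loop. Nr1d1 (ENSMUSG00000020889, chromosome 11, 98767932 to 98775333, minus strand) stood at 23.5, 28.1 and 40.8 CPM in DKO 1, 3 and 4, against 27.6, 36.6 and 43.2 CPM in WT 1, 2 and 3. Nr1d2 (ENSMUSG00000021775, chromosome 14, 18204054 to 18239127, minus strand) stood at 66.0, 55.6 and 83.2 CPM in DKO 1, 3 and 4, against 81.2, 91.3 and 93.7 CPM in WT 1, 2 and 3. In both genes DKO 4 lay above the lowest WT library, WT 1, so the groups overlapped. The log2 fold changes were -0.22 (95% interval -0.75 to 0.31, edgeR adjusted p = 0.664) for Nr1d1 and -0.38 (95% interval -0.71 to -0.05, edgeR adjusted p = 0.223) for Nr1d2. That of Nr1d1 was -0.05 without DKO 1, -0.06 without WT 3, -0.47 without DKO 4 and -0.37 without WT 1, and that of Nr1d2 was -0.25 without DKO 3. The exons of Nr1d1 share 263 bases, 8.55% of their length, with the opposite-strand gene Thra, and the library kit does not mark strand, so reads from that stretch cannot be assigned.

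Dbp (ENSMUSG00000059824, chromosome 7, 45705088 to 45710203, plus strand), the output factor that binds D-boxes, stood at 3.81, 3.62 and 5.08 CPM in DKO 1, 3 and 4, against 3.73, 6.30 and 6.93 CPM in WT 1, 2 and 3. WT 1 lay with the DKO libraries, and the log2 fold change was -0.44 (95% interval -1.05 to 0.18, edgeR adjusted p = 0.433). It was -0.26 without WT 3 and -0.66 without WT 1. Its counts were low, from 71 to 159 per library, and 18.0% of its exonic length is shared with Sphk2 on the opposite strand. The ratio of CPM to FPKM varied 1.44-fold between libraries for Dbp and at most 1.24-fold for the other members, and on the log2(FPKM + 1) scale its difference was -0.15 (SE 0.19, limma adjusted p = 0.736).

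Read together, 0 of the 10 members passed the edgeR test in either direction, where 1.04% of the 14721 tested genes did, 0.734% of them higher and 0.306% lower. At an unadjusted p under 0.05, 0 members were higher and 4 were lower (Clock, Per3, Per2 and Nr1d2), where 8.67% of all tested genes were higher and 9.37% lower at that level, 18.0% in all. In 3 members (Per2, Per3 and Clock) all DKO libraries lay below all WT libraries, as they did in 11.8% of all tested genes, and 0 members had all DKO libraries above, as 11.4% of genes did (23.3% either way). Of the 10 log2 fold changes 8 were below 0, with a median of -0.29, against 51.3% below 0 and a median of -0.01 over all tested genes. DESeq2 called 1 member lower and 0 higher, where it called 5.86% of its genes, 3.24% higher and 2.62% lower. Limma on log2(FPKM + 1) called 0 members and 0.576% of its genes, in a fit without Per2. These genes regulate each other and share libraries, so the counts are a description and were not tested as a list.

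The count of called genes rested on single libraries: 153 genes passed with all libraries, 102 without DKO 1, 23 without DKO 3, 21 without DKO 4, 84 without WT 1, 335 without WT 2 and 30 without WT 3. No member passed the edgeR test whichever library was left out.

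**Figure D3:**
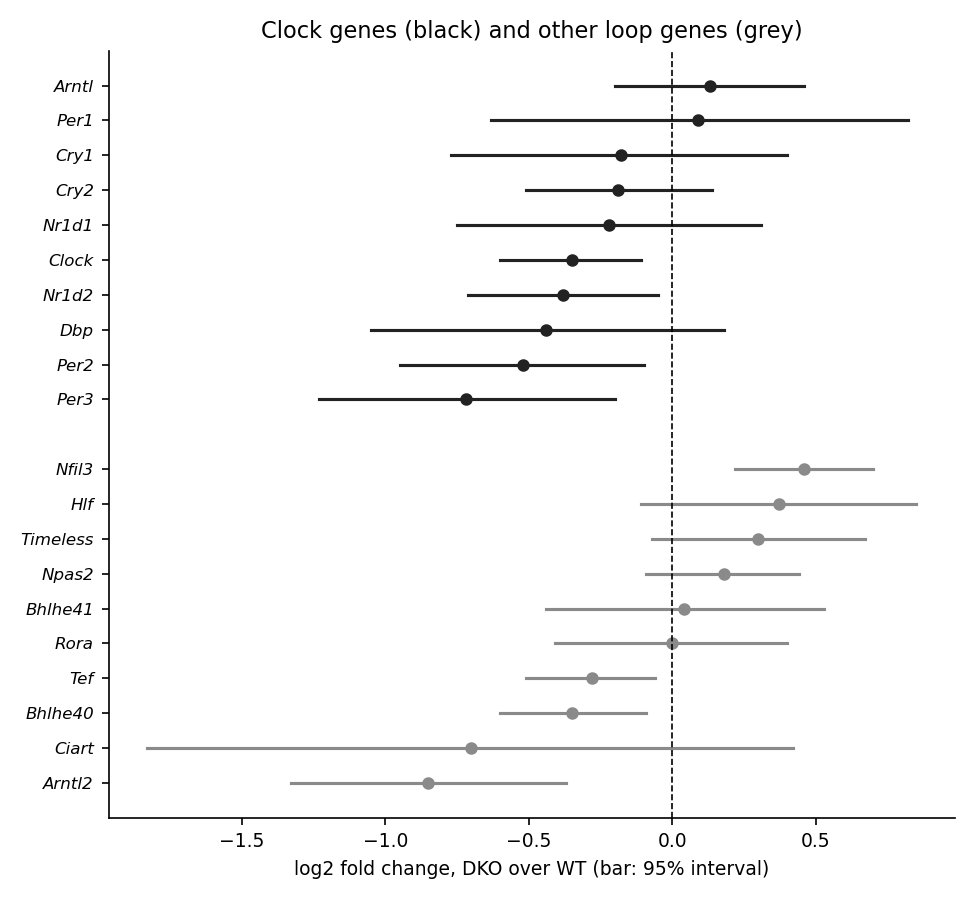
Log2 fold change of DKO over WT by edgeR, with 95% intervals, for the 10 clock genes (black) and 10 other genes of the loop (grey), each ordered by size. Clock, Nr1d2, Per2 and Per3 have intervals below 0 before adjustment, as do Arntl2, Tef and Bhlhe40 among the grey genes, where Nfil3 lies above 0, and none of the genes drawn passed the adjusted threshold.

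The members also differed between the libraries of a group, read here in CPM. DKO 4 and WT 3 were each the highest of their group for the same 4 genes, Per3, Nr1d1, Nr1d2 and Dbp, and the lowest of their group for Per1. For Dbp the deposited FPKM did not show this in DKO, at 3.15, 3.09 and 3.02 in DKO 1, 3 and 4. WT 1 was the lowest WT library for 6 members (Per2, Per3, Cry2, Nr1d1, Nr1d2 and Dbp) and the highest for the other 4 (Per1, Cry1, Arntl and Clock). It was thus at an end of its group for all 10. With 3 libraries in a group most are at an end for any gene, and the share over all genes was not counted. WT 1 also lay furthest from the other WT libraries in its counts. Chi-square per degree of freedom was 69.9 with WT 2 and 42.4 with WT 3, against 36.2 between WT 2 and WT 3. DKO 3 was the lowest DKO library for 7 members and the highest for Arntl. In log2 CPM, Nr1d1 deviated from its group mean by -0.34, -0.09 and 0.44 in DKO 1, 3 and 4 and by -0.35, 0.06 and 0.29 in WT 1, 2 and 3. Per1 deviated the other way, by 0.31, 0.31 and -0.61 in DKO 1, 3 and 4 and by 0.53, 0.01 and -0.53 in WT 1, 2 and 3. This contrast was noticed in the data and was not tested.

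**Figure D4:**
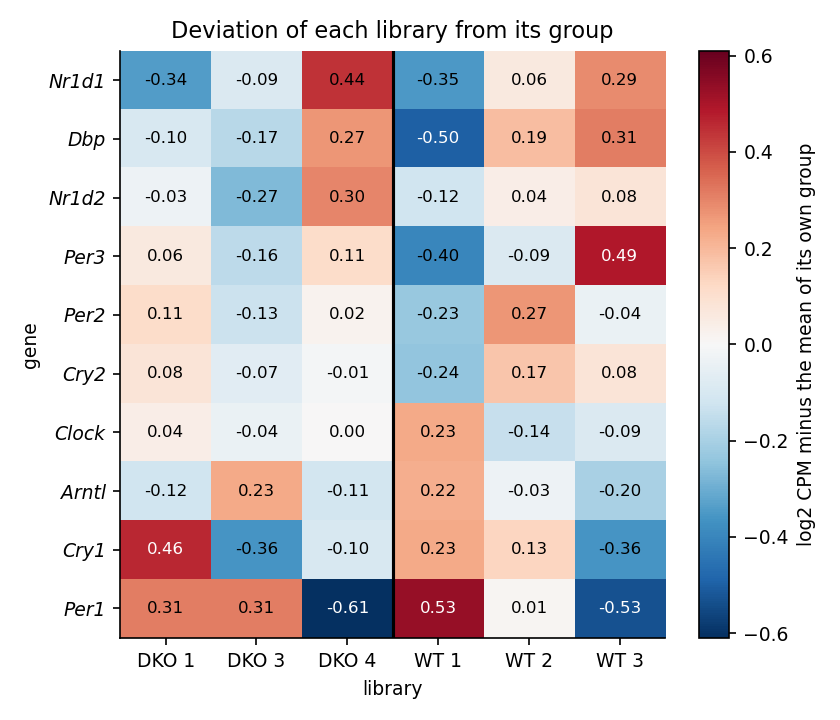
Deviation of log2 CPM of each clock gene (rows) in each library (columns, DKO left and WT right) from the mean of its own group. Nr1d1, Dbp, Nr1d2 and Per3 are at their highest in DKO 4 and WT 3, where Per1 is at its lowest (-0.61 and -0.53). In deposited FPKM, Dbp was lowest in DKO 4 among the DKO libraries (3.02).

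The spread within a group lay above the median over all genes for most members, but not for all. The SD of log2 CPM over the 3 libraries of a group had a median over members of 0.22 in DKO and 0.28 in WT, against 0.11 in DKO and 0.13 in WT over the 12146 tested genes with a mean of at least 50 counts. Per1 had an SD of 0.53 in DKO and 0.53 in WT, above 97.4% of those genes in DKO and 95.8% in WT. Cry1 (0.42 and 0.32) and Nr1d1 (0.40 and 0.32) were above at least 86.2% of genes in each group. In DKO, Clock lay above only 10.8% of genes, Cry2 above 32.5%, Per2 above 54.8% and Per3 above 62.7%. In WT the same genes lay above 71.1% to 93.7%, and Nr1d2 above 40.6%. Clock differed between the groups in this respect, with an SD of 0.04 in DKO and 0.20 in WT, and Nr1d2 the other way, with 0.29 in DKO and 0.11 in WT; with 3 libraries each these differences were not tested. With 1 library left out, the DKO median of the members was 0.15 without DKO 3 and 0.16 without DKO 4. The WT median was 0.14 without WT 1 and 0.36 without WT 2. The median over all genes was not computed with a library left out, so these values cannot be set against 0.11 and 0.13.

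**Figure D5:**
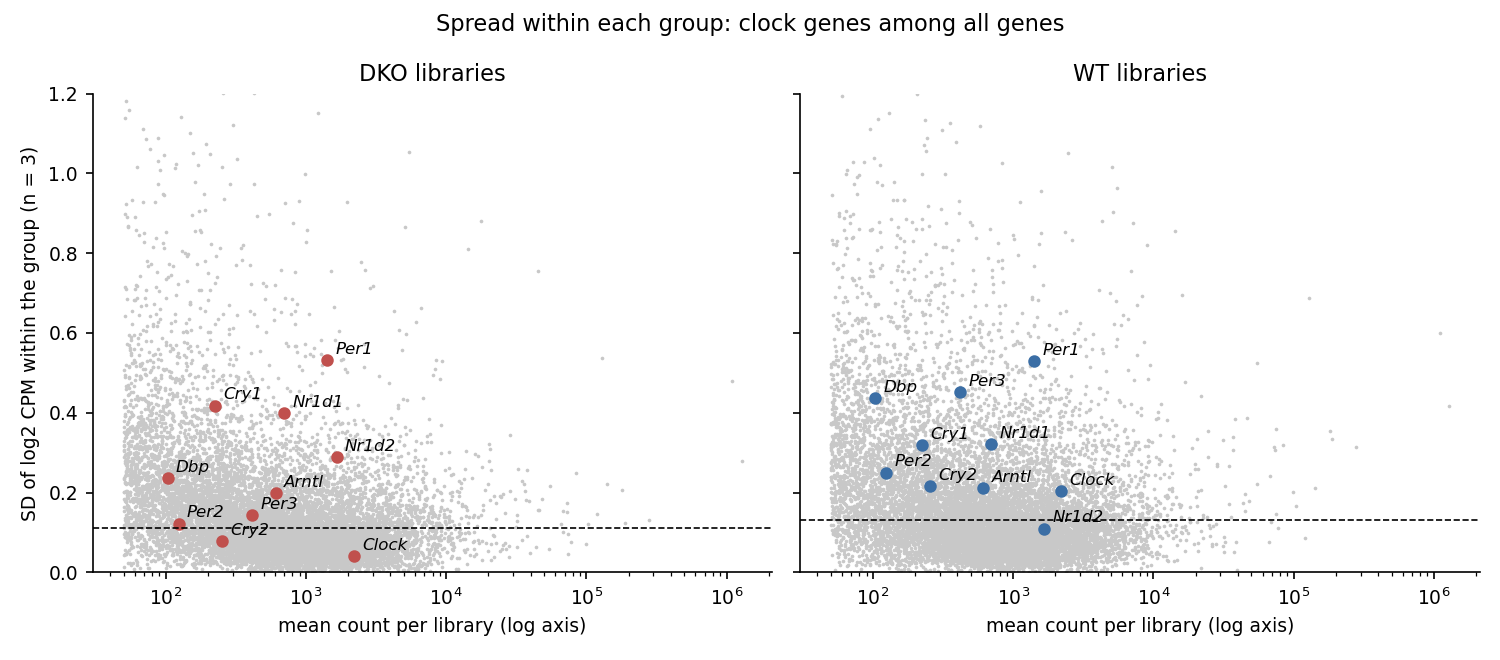
SD of log2 CPM within a group (3 libraries) against mean count per library for 12146 genes (grey) and the clock genes (coloured), DKO left and WT right; dashed lines are medians over all genes (0.11 in DKO, 0.13 in WT). Per1 lies highest among the members in both panels at 0.53; 39 genes in DKO and 77 in WT lie above the axis top of 1.2.

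Dbp and Arntl peak at opposite times of day in most mouse tissues, so their difference within a library is a simple reading of the loop. The log2 CPM of Dbp minus that of Arntl was -2.72, -3.14 and -2.36 in DKO 1, 3 and 4, and -2.96, -2.02 and -1.73 in WT 1, 2 and 3. The means were -2.74 ± 0.39 in DKO and -2.24 ± 0.64 in WT (SD, n = 3 each), a difference of -0.50. WT 1 lay among the DKO libraries, and the range over all 6 libraries, 1.41, exceeded the difference between the groups. Without WT 1 the difference was -0.86, the largest in size with any library left out, without WT 3 it was -0.25 and without DKO 3 it was -0.30. On the log2(FPKM + 1) scale, with all libraries, the difference was -0.29.

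Among the other members, the profile of Nr1d1 over the 6 libraries lay closest to that of Dbp, with a root mean square difference of 0.16 in log2 CPM after each gene was centred on its own mean, and that of Per1 lay farthest at 0.74. Among 11812 protein-coding genes with a mean of at least 50 counts, the 5 closest to Dbp were Strc, Gpr160, Traf5, Dok3 and Sult5a1, at 0.087 to 0.141. The 5 closest to Arntl were Dact1, Arrdc3, Cyyr1, Bbs12 and Nlk, at 0.032 to 0.062, and the closest member was Clock at 0.28. The SD over the 6 libraries was 0.197 for Arntl itself and 0.374 for Dbp. The 0.28 exceeds the SD of Arntl, so Clock did not follow Arntl closely. Over 6 libraries, so many genes hold some that match closely, and the values are a description.

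Of 12 further genes of the loop and its branches, most of them transcription factors, 11 were tested and 0 passed by edgeR, with a median log2 fold change of 0.00. Over all tested genes 1.04% passed. In 2 of the 11 all DKO libraries lay above all WT libraries and in 3 below, as in 11.4% and 11.8% of all tested genes. Rorb, a ROR activator, had at most 6 counts in a library and was not tested. Nfil3, the repressor that competes with DBP at D-boxes, stood at 37.7, 37.2 and 35.0 CPM in DKO 1, 3 and 4, against 30.5, 25.6 and 23.9 CPM in WT 1, 2 and 3. The groups of Nfil3 did not overlap, and it differed by 0.46 on the log2 scale with an SE of 0.10 (adjusted p = 0.0905 by edgeR, 0.0436 by edgeR without a low-count filter and 0.012 by DESeq2, the last 2 below the threshold). Arntl2, a paralog of Arntl, stood at 2.46, 2.09 and 1.98 CPM in DKO 1, 3 and 4, against 4.58, 3.39 and 3.84 CPM in WT 1, 2 and 3, with -0.85 (SE 0.21, edgeR adjusted p = 0.102, and 0.0426 by DESeq2, which called it).

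Tef and Hlf encode relatives of DBP that bind the same D-boxes. Tef stood at 85.6 ± 9.92 CPM in DKO and 104 ± 6.35 CPM in WT (SD, n = 3 each), without overlap, and Hlf at 182 ± 46.4 CPM in DKO and 141 ± 30.6 CPM in WT (SD, n = 3 each), with overlap. Their log2 fold changes were -0.28 (SE 0.10) and 0.37 (SE 0.21), and neither passed (edgeR adjusted p = 0.192 and 0.397). Hlf was 0.14 without DKO 3 and 0.23 without WT 3. Bhlhe40, an E-box repressor, had -0.35 (SE 0.11, edgeR adjusted p = 0.173) without overlap, and its paralog Bhlhe41 had 0.04 (SE 0.21). Npas2, a partner of BMAL1 like CLOCK, had 0.18 (SE 0.11), Timeless 0.30 (SE 0.16), Rora 0.00 (SE 0.17) and Ciart, a repressor at 1.22 CPM or less, -0.70 (SE 0.48), none of which passed (edgeR adjusted p from 0.367 to 0.991).

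Of 8 regulators of PER and CRY stability, 0 passed by edgeR, 0 had an unadjusted p under 0.05 and DESeq2 called 0, with log2 fold changes from -0.37 to 0.14. The shares over all tested genes were 1.04%, 18% and 5.86%. Csnk1d, the kinase that marks PER proteins for degradation, stood at 157 ± 7.53 CPM in DKO and 164 ± 0.403 CPM in WT (SD, n = 3 each), with -0.06 (95% interval -0.22 to 0.10). The ubiquitin protease gene Usp2 had -0.37 (95% interval -0.87 to 0.14), but -0.07 without WT 1. Csnk1d was -0.02 without DKO 3.

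Of 11 genes that cycle in many mouse tissues, 1 was called higher, 0 lower and 10 did not pass by edgeR. It called 0.734% of all tested genes higher. At an unadjusted p under 0.05, 2 were higher and 0 lower, where 8.67% and 9.37% of all tested genes were. DESeq2 called 2 higher and 0 lower, where it called 3.24% of its genes higher. In 4 all DKO libraries lay above all WT libraries, as in 11.4% of all tested genes. Dtx4, a ubiquitin ligase gene of the Notch pathway, stood at 25.5, 24.2 and 22.7 CPM in DKO 1, 3 and 4, against 16.8, 12.9 and 13.3 CPM in WT 1, 2 and 3, 1.68-fold higher in DKO (log2 0.75, SE 0.13, edgeR adjusted p = 0.0455). Leaving out DKO 1, DKO 3, DKO 4, WT 2 or WT 3 ended the call of Dtx4 (adjusted p from 0.058 to 0.147), as did total-count scaling (0.0676), a covariate for high Xist (0.0739) and limma on FPKM (0.1 to 0.238). Wee1, a cell cycle kinase gene that CLOCK and BMAL1 drive in liver, had -0.25 (SE 0.15, edgeR adjusted p = 0.451), and was -0.11 without WT 1 and -0.13 without DKO 3.

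Per1 also answers to glucocorticoid and to cAMP and calcium signals, so genes that share these inputs were read beside it. Over all tested genes edgeR called 0.734% higher and 0.306% lower. Of 6 glucocorticoid-responsive genes it called 1 higher and 0 lower. That gene was Errfi1, an inhibitor of the epidermal growth factor receptor, at 229, 274 and 220 CPM in DKO 1, 3 and 4, against 127, 108 and 124 CPM in WT 1, 2 and 3, 2.01-fold higher in DKO (log2 1.01, SE 0.11, edgeR adjusted p = 0.0125). Its call ended when WT 3 was left out (0.0522) and by limma without a filter (0.0785). Tsc22d3, which glucocorticoid induces in many cells, stood at 321, 300 and 227 CPM in DKO 1, 3 and 4, against 306, 264 and 146 CPM in WT 1, 2 and 3, lowest in the same libraries as Per1, and differed by 0.25 on the log2 scale with an SE of 0.26 (adjusted p = 0.674 by edgeR). Fkbp5, which glucocorticoid also induces, stood at 61.3, 23.8 and 37.0 CPM in DKO 1, 3 and 4, against 65.8, 30.4 and 28.0 CPM in WT 1, 2 and 3, highest in DKO 1 and WT 1.

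Of 6 genes that CREB induces, 0 passed by edgeR, with 1 higher and 2 lower at an unadjusted p under 0.05. At that level 8.67% of all tested genes were higher and 9.37% lower. DESeq2 called 2.62% of its genes lower, and 1 of these 6 CREB-induced genes. Sik1, a kinase gene of this kind that limits clock resetting, had -0.06 (95% interval -0.29 to 0.17). The 3 past the unadjusted level, named after their values were seen, did not overlap between the groups. Over all tested genes 23.3% did not overlap, and picking genes by a low p makes it likelier. Nr4a3, a nuclear receptor gene, stood at 2.81, 3.87 and 4.12 CPM in DKO 1, 3 and 4, against 15.1, 8.29 and 7.85 CPM in WT 1, 2 and 3, with -1.54 (SE 0.29, adjusted p = 0.0609 by edgeR). Crem, a CREB family gene, had -0.41 (SE 0.11) and Fos, an immediate early gene, 0.36 (SE 0.10), with adjusted p of 0.119 and 0.135 by edgeR. Nr4a3 passed by DESeq2 (8.54e-05), by edgeR without a low-count filter (0.00631) and by edgeR without WT 2 (0.0476), over a range up to 0.291. Of 7 enamel genes 0 passed by edgeR, with 2 higher and 0 lower at an unadjusted p under 0.05 and 1 called higher by DESeq2. In 1 enamel gene all DKO libraries lay above all WT libraries and in 1 below, as in 11.4% and 11.8% of all tested genes. Amelx, which encodes the main enamel matrix protein, stood at 47843, 81133 and 43986 CPM in DKO 1, 3 and 4, against 28849, 63667 and 53479 CPM in WT 1, 2 and 3, so it was lowest in WT 1 and highest in DKO 3. The protease gene Klk4, of enamel maturation, stood at 1123 ± 177 CPM in DKO and 802 ± 157 CPM in WT (SD, n = 3 each), overlapping, with a log2 difference of 0.49 (adjusted p = 0.208 by edgeR).

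Markers of other cells were read as sums, and each marker listed was detected in at least 1 library. The sums of oral keratinocyte, endothelial and leukocyte markers did not overlap between the groups. Among all tested genes, taken singly, 23.3% did not overlap, and edgeR called 0.734% higher and 0.306% lower. The summed level of 5 oral keratinocyte markers ranged from 65.3 to 117 CPM in DKO and from 253 to 448 CPM in WT, and 1 of them was called lower. The 5 endothelial markers summed to 217 to 223 CPM in DKO and 146 to 193 CPM in WT, and the 5 leukocyte markers to 84.8 to 106 CPM in DKO and 59.9 to 83.0 CPM in WT, with no member of either list called by edgeR. The sums of 6 mesenchymal, 5 odontoblast and osteoblast, 4 neutrophil, 4 skeletal muscle and 4 nerve markers overlapped between the groups. Within the odontoblast and osteoblast list 1 gene was called lower, the osteocalcin gene Bglap2, named after its value was seen, at 2.61, 1.99 and 3.91 CPM in DKO 1, 3 and 4, against 20.9, 15.5 and 20.8 CPM in WT 1, 2 and 3 (adjusted p = 0.00744 by edgeR, 0.0825 by limma without a filter). The value of Bglap2 is uncertain, since a near-identical neighbouring gene can share its reads. In the same list 3 genes had a log2 fold change above 0 and 2 below. Ibsp, also named after its value was seen, was higher in every DKO library but not called (log2 1.84, adjusted p = 0.155 by edgeR). It stood at 186, 41.1 and 54.7 CPM in DKO 1, 3 and 4, against 25.2, 19 and 34.2 CPM in WT 1, 2 and 3. The part of these markers in the lower Clock, Per2 and Per3 values was not tested.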

How the data were processed

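RNA of 6 enamel organ libraries was measured, 3 DKO and 3 WT. The authors deposited raw counts, 1 whole number for each Ensembl gene and library, and FPKM values from Cufflinks, per the file headers. Trimmomatic 0.32, Cufflinks 2.2, HTSeq and GRCm38 are named without a role in the submitters' processing notes. Aligner: not given in the sources used here. All rows named a gene.

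DKO was compared with WT over 14721 genes with edgeR 4.0.16 in R 4.3.3 (its quasi-likelihood test) with TMM scaling and filterByExpr, no covariate, Benjamini-Hochberg adjustment over all tested genes and a threshold of 0.05. SE is the log2 fold change over the square root of F, and intervals are 95% and unadjusted. Log2 CPM has 0.5 CPM added. With 3 libraries a group their number limits the precision, and for members with low counts or little spread counting error adds to it. No 2 libraries of a group agreed within sampling noise (chi-square per degree of freedom at least 14.3). The fits were checked on simulated data. Alternatives were other scalings and filters, the replicate number as a block, a covariate marking the libraries where Xist exceeded 100 CPM (the Xist term), each library left out, DESeq2 1.42.0 and limma 3.58.1 on log2(FPKM + 1) or log2(FPKM + 0.1), without 9 genes whose FPKM estimate failed.

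Coordinates and exon overlaps are from GENCODE vM21 on GRCm38, which may not be the authors' release. The members and lists were chosen with earlier results of these data known. Named were all members, Stim1 and Stim2, genes of the loop and stability lists, called members of the other lists with 6 fixed genes (Tsc22d3, Wee1, Fkbp5, Sik1, Amelx and Klk4), and the 5 genes closest to Dbp and to Arntl. Of the genes of the loop and stability lists, 2 are not reported here.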

Additional observations from a re-analysis of the deposited data

How the results depend on the processing

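No clock gene was called higher under any of 18 alternatives, and 1, Per3, was called lower under 1 of them, DESeq2. The signs of Per2, Per3, Cry2, Arntl, Clock, Nr1d1, Nr1d2 and Dbp held wherever they were fitted. Log2 fold changes close to 0 turned: Cry1 to 0.02 with the Xist term; Rora to 0.00 with DESeq2 size factors or the DESeq2 test, 0.02 with upper-quartile scaling and 0.07 with the Xist term; Bhlhe41 to 0.00 with total counts; Fkbp5 to 0.00 with upper-quartile scaling and 0.24 with the Xist term. With 1 library left out they ran from -0.13 to 0.40 for Per1, -0.13 to 0.25 for Rora, -0.11 to 0.32 for Bhlhe41, -0.01 to 0.47 for Tsc22d3, -0.12 to 0.04 for Sik1, -0.44 to 0.48 for Fkbp5 and -0.08 to 0.49 for Amelx, and the median WT spread of the members from 0.14 to 0.36. The cause was not tested.

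Genes called numbered 554 (genes called higher 312, genes called lower 242) without a low-count filter, 862 (476 and 386) by DESeq2, 71 (52 and 19) with the Xist term, 77 (61 and 16) and 77 (60 and 17) by limma with 1 or 0.1 added to FPKM, and 11 (8 and 3) by limma without a filter. A mean of at least 50 counts left 29 lower. With 1 library left out calls ran from 21 to 335, with 17 to 124 higher and 4 to 211 lower. Stim2 missed the threshold with the Xist term (-1.13) and by limma without a filter (-1.31), and ran from -1.18 to -0.96 with 1 library left out. Per2 was not in the limma fits that required 1 FPKM, Ciart in those or with a mean of at least 50 counts, and Amelx in any limma fit.

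DKO and WT share the replicate numbers 1 and 3. The deviations of same-numbered libraries from their group means correlated at 0.22 for number 1 and -0.02 for number 3 over genes, and the labels do not say that a number marks a shared source, so no pairing was taken from it. With the replicate number as a block, a library whose number occurs only in DKO or only in WT adds nothing to the group difference. The difference in that fit therefore rested on the libraries numbered 1 and 3. It called 328 genes, 196 of them lower, with 0 clock genes among them. With so few libraries behind the difference, those 0 calls say little about the clock genes. In the same fit Bhlhe41 turned to -0.02 and the call of Dtx4 ended (adjusted p = 0.0565 by edgeR).

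Depth limits Dbp and Per2 most, with as few as 71 and 85 counts in a library.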

Other observations

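The contrast between Nr1d1 and Per1 was chosen after the values were seen. The log2 CPM of Nr1d1 minus that of Per1 was -1.79, -1.54 and -0.09 in DKO 1, 3 and 4, and -1.69, -0.77 and 0.01 in WT 1, 2 and 3. DKO 4 and WT 3 were the highest of their groups, and DKO 1 and WT 1 the lowest. The range over all libraries was 1.80, against a difference between the group means of -0.33.

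The summed level of 5 erythroid markers was 134, 243 and 391 CPM in DKO 1, 3 and 4, and 140, 321 and 432 CPM in WT 1, 2 and 3, the order of Nr1d1 within each group. Its part in the Nr1d1 levels was not tested. The libraries with Xist above 100 CPM, namely DKO 1, WT 1 and WT 2, had differences of -1.79, -1.69 and -0.77, and those below it, DKO 3, DKO 4 and WT 3, had -1.54, -0.09 and 0.01.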
